A study of Mus musculus with 2 samples.

Results

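A group of 38 interferon-stimulated genes was followed through 12 cell types of mouse tumours, in a control library and a library labelled BiDT. The genes were taken from a list of 40 symbols that holds antiviral effectors, TRIM ubiquitin ligases, PARP enzymes, nuclear body proteins and the Ifitm membrane proteins. A symbol was kept when its row had at least 50 UMIs (unique molecular identifiers, counted RNA molecules) over both libraries. All 38 symbols with a row passed, out of 32589 genes in the files, of which 17177 had that many UMIs. Their totals ran from 4028 UMIs for Trim21 to 251078 for Ifi27l2a. Mx1 and Mx2 were not analysed here.

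Interferon-stimulated genes are the genes that cells switch on when interferon binds its receptor. Many genes that respond to type I interferon carry a DNA element called the interferon-stimulated response element (ISRE) near their start. Many that respond to interferon gamma carry another, the gamma-activated site (GAS). Many products of these genes block a step of viral growth, and their RNA levels are widely read as a sign of interferon exposure in tumours.

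MC38 is a mouse colon carcinoma line. Tumours were collected 19 days after MC38 cells were inoculated, digested with enzymes and sorted for live cells that carry CD45, the leukocyte surface marker. Cells of 5 biological replicates were pooled into 1 library labelled Ctrl, the control group, and 1 library labelled BiDT, the treated group. The labels do not define BiDT, but the title of the series speaks of an interferon joined to an antibody against TIM3. Both libraries belong to batch 1 and share the tumour line, the day and the sort. The strain, sex and age of the mice, the dose and the control treatment are not given in the sources used here. Each group is thus 1 pooled library, so that differences between groups could not be tested, and intervals cover counting error alone.

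There were 211047063 UMIs on 34310 barcodes in Ctrl and 130313537 on 34996 in BiDT. After filters 30415 and 31709 cells remained, at a median of 4172 and 2619 UMIs. Marker genes placed 18885 Ctrl cells (62.1%) and 15526 BiDT cells (49.0%) in 1 of 12 types, and each name below means cells like that type by these markers: NK, CD8 T, CD4 T, regulatory T, gamma delta T, monocyte (low in the complement genes C1qa, C1qb and C1qc), macrophage (high in them), neutrophil, conventional dendritic cells of type 1 and type 2 (cDC1, cDC2), migratory dendritic and non-immune. Ptprc, the gene of CD45, was found in 52.0% to 95.7% of the cells of each leukocyte type, but in 21.5% of Ctrl and 21.0% of BiDT cells of the non-immune type. That type was chosen by Sparc, Sox9 and collagen genes and by at most 1 Ptprc UMI per cell. Its low share of Ptprc was thus partly set by the gate. Malat1, an RNA retained in the nucleus, made up 0.41% of Ctrl UMIs and 0.823% of BiDT UMIs, and was higher in BiDT in all 12 types. The libraries shared 713 barcodes, of which 178 were placed in a type in both and 47 in the same type. The part of Malat1 in the results was not tested. For 101 pairs of a gene and a type the ratio was also computed under other settings, such as cells thinned to 1000 UMIs each before they were placed (equal depth) or cells of 1500 to 5000 UMIs, and a value moved by over 1.5 times is given beside the result.

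The stretches around the start sites of 5 members are shown because they hold the response element or, next to genes that do, lack it. They run from 150 bases before to 30 after the start in the RefSeq annotation (GRCm38.p6), on the strand of the gene: Rsad2 at chr12:26456423-26456602 (minus), Bst2 at chr8:71537443-71537622 (minus), and the neighbours Ifitm2 at chr7:140955932-140956111 (minus), Ifitm1 at chr7:140967926-140968105 (plus) and Ifitm3 at chr7:141010715-141010894 (minus). Capitals mark the letters GAAANNGAAA or, on the other strand, TTTCNNTTTC.
Rsad2: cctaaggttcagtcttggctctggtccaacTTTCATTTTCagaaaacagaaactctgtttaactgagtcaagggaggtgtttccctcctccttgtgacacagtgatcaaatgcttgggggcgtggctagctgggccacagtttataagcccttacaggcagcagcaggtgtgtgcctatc
Bst2: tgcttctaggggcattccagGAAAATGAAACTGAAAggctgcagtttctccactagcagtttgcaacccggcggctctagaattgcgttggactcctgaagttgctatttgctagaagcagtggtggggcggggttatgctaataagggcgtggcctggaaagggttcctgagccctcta
Ifitm2: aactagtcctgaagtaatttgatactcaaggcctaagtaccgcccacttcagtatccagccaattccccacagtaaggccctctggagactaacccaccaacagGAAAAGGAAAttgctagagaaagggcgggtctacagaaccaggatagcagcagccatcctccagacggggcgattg
Ifitm1: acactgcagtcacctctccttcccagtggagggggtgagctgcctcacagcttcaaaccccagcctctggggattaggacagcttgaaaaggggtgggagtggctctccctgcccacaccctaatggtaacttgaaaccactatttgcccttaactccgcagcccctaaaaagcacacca
Ifitm3: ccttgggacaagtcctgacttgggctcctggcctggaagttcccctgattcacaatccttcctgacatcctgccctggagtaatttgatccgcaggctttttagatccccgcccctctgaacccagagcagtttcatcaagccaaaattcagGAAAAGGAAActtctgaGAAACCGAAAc

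Of the 38 genes, 32 matched a RefSeq promoter of 250 bases before to 50 after the start, and 6 (Parp9, Parp10, Parp14, Rtp4, Tor3a and Ifi27l2a) are only named. The ISRE letters stood in 11 of the 32, namely Bst2, Ifitm2, Ifitm3, Phf11b, Rsad2, Tdrd7, Trim12c, Trim21, Trim30a, Trim30d and Trim34a, against 3.99% of 27025 genes with a promoter of this length. The letters of the gamma-activated site, TTCNNNGAA, which read the same on both strands, stood in 5 of 32 (Bst2, Ifi35, Ifitm3, Ifitm6 and Isg20), against 9.55% of genes. In Bst2, 2 overlapping matches began at positions -130 and -124 from the start. In Ifitm3, 2 matches lay just after the start, at 3 and 20, and in Ifitm2 1 match lay at -46. A match of letters is a description of the window and not a shown binding site.

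Most members were higher in the BiDT library in most cell types. A member counts as measured in a type with at least 20 UMIs there over both libraries. It counts as higher when its CPM (its UMIs per 1000000 UMIs of that type) were at least 1.5 times those of Ctrl with the exact 95% counting interval above 1-fold, and as lower when the reverse held. Of 443 pairs of a member and a type that were measured, 369 were higher, 17 lower and 57 neither. Over all genes measured in a type, 6.57% (cDC2) to 19.3% (non-immune) were higher. In the types where a member was lower, 5.1% (migratory dendritic) to 11.6% (macrophage) of all genes were lower, so some lower calls are found among genes at large. All 17 lower pairs belonged to Ifitm1, Ifitm2 and Ifitm6.

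**Figure D1:**
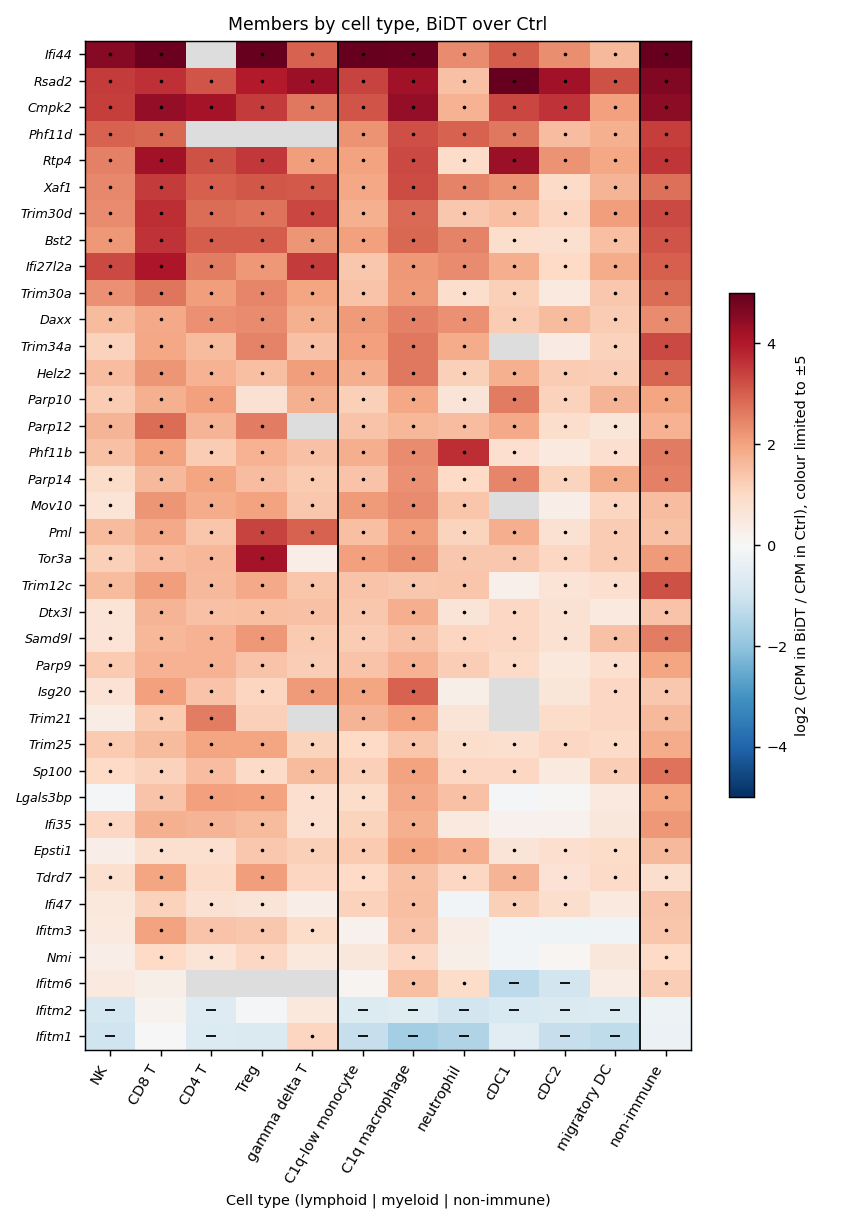
Log2 ratio of CPM in BiDT over Ctrl for 38 genes (rows, ordered by their median) in 12 cell types (columns). Dots mark pairs called higher and dashes pairs called lower, grey squares were not measured, and the colour is limited to 5 in either direction. For Ifi44 in gamma delta T cells and neutrophils, at 0 UMIs in Ctrl, the colour shows the ratio with 3 UMIs put in place of 0. Red fills all but the lowest rows, where Ifitm1 and Ifitm2 are blue in most types.

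Among lymphoid cells the shift was largest in CD8 T and regulatory T cells and smallest in NK cells. In CD8 T cells 35 of 38 members were higher and 0 lower, against 9.21% of all genes measured there called higher, with a median log2 ratio of 1.92. The medians of the members' lower and upper interval bounds were 1.64 and 2.14. In regulatory T cells 32 of 36 were higher (7.5% of all genes), with a median of 1.99, and in CD4 T cells 32 of 35 (7.51%), with a median of 1.72. In gamma delta T cells 29 of 34 were higher (7.24%), with a median of 1.47. In NK cells 29 of 38 were higher (11.0% of all genes) and 2 lower (5.43% of all genes lower), with a median of 1.23. In CD4 T cells 2 members were lower, where 5.43% of all genes were. With cells thinned to 1000 UMIs before they were placed, fewer members could be measured, and 17 of 34 were higher in NK (5.69% of all genes), 10 of 15 in CD4 T (6.76%), 3 of 4 in regulatory T (6.46%) and 4 of 4 in gamma delta T cells (6.95%).

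Myeloid cells spanned a wider range. Macrophages had 36 of 38 members higher (18.5% of all genes) and 2 lower (11.6%), with a median log2 ratio of 2.06. Monocytes followed with 33 higher (9.88%) and 2 lower (5.65%) at a median of 1.43, and neutrophils with 30 higher (9.42%) and 2 lower (6.82%) at 1.15. The dendritic cells had medians near or below those of neutrophils and NK cells. In cDC1 26 of 34 were higher (8.39%) and 2 lower (6.32%), at a median of 1.18, and in migratory dendritic cells 28 of 38 were higher (10.9%) and 2 lower (5.1%), at 1.13. In cDC2 23 of 38 were higher (6.57%) and 3 lower (5.19%), at 0.78, the lowest median of the 12 types. The dendritic counts leaned on the settings: in cDC1 16 of 29 measured members were higher with the marker UMIs required doubled (8.68% of all genes) and 12 of 21 in cells of 1500 to 5000 UMIs (7.6%), and in cDC2 12 of 38 were at least 2-fold higher (3.37%). Thinned cells gave 2 of 2 measured members higher in cDC1 (11.2%), with a median of 2.47, 7 of 21 in cDC2 (6.11%) and 14 of 25 in migratory dendritic cells (8.74%).

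The non-immune cells had the highest median, by a small margin over macrophages. There 36 of 38 members were higher (19.3% of all genes) and 0 lower, with a median log2 ratio of 2.15. The median over all measured genes lay between -0.036 and 0.115 in the 12 types. TMM factors (trimmed mean of M-values) in place of totals shifted every log2 ratio of the non-immune cells by -0.115 and those of the other types by -0.091 to 0.019. The medians were then 2.031 in non-immune, 1.995 in regulatory T cells and 1.973 in macrophages. In thinned cells the non-immune median of 2.418 lay below regulatory T cells (2.613, 4 members measured) and cDC1 (2.466, 2 members measured). The first place thus leaned on the setting.

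**Figure D2:**
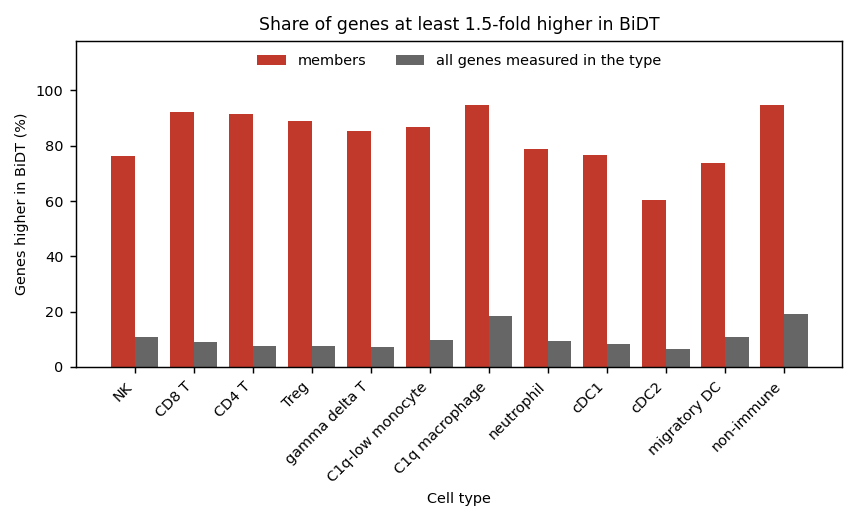
Share of genes called higher in BiDT in each cell type, in percent, for the members measured there (red) and for all genes measured there (grey). The red bars run from 60.5% in cDC2 to 94.7% in macrophages and non-immune cells, and the grey bars from 6.57% to 19.3%.

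The genes were sorted by where they were higher. The sort was made for the members only, so its counts have no share over all genes beside them. A set of 16 was higher in every type where measured: Cmpk2, Rsad2, Ifi44, Ifi27l2a, Bst2, Rtp4, Xaf1, Trim30d, Trim25, Phf11d, Parp12, Parp14, Samd9l, Pml, Daxx and Helz2. Of these, Ifi44 and Parp12 were measured in 11 types and Phf11d in 9, and the others in all 12. Some of these calls lay at levels below 10% of the highest type in both libraries. They were Ifi27l2a in NK and non-immune cells, Rtp4 and Phf11d in NK cells, and Rsad2 in 5 types. How much RNA released by other cells added to these levels was not tested. With a 2-fold threshold 7 members were higher in all types, and with thinned cells 9. A further 20 were mixed, of which 11 missed the call in only 1 of their measured types. No member was higher in myeloid cells only or in non-immune cells only. Ifitm1 alone fell under lymphoid cells only, by its call in gamma delta T cells, and Ifitm2 was higher in no type. The missed calls gathered in cDC2 (15 of 38 members not higher), migratory dendritic cells (10) and NK cells (9), and were fewest in macrophages and non-immune cells (2 each).

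Rsad2 encodes viperin, an enzyme that makes a chain-ending nucleotide from CTP, and its genomic neighbour Cmpk2 encodes a mitochondrial nucleotide kinase. Rsad2 stood at 7.89 CPM (gamma delta T) to 29.5 (CD4 T) in the Ctrl lymphoid cells and at 129 (NK) to 317 (regulatory T) in BiDT. Its ratio was largest in cDC1, from 9.14 to 591 CPM, a log2 ratio of 6.01 (5.01 to 7.24) that rests on 8 Ctrl UMIs and was 5.39 in cells of 1500 to 5000 UMIs. In neutrophils Rsad2 was already at 1008 CPM in Ctrl and reached 2745 in BiDT, a log2 ratio of 1.45 (1.31 to 1.58), its smallest. Neutrophils thus had the highest level in both libraries and the smallest ratio.

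Rsad2 also stood at 167 and 1750 CPM in monocytes, 68.0 and 1254 in macrophages, 63.7 and 1166 in cDC2, 68.3 and 628 in migratory dendritic cells and 10.9 and 273 in non-immune cells. In regulatory T cells its log2 ratio of 3.97 (3.15 to 4.89) was 4.95 without the shared barcodes, 4.58 in cells of 1500 to 5000 UMIs and 2.98 with the marker UMIs required doubled. Doubled marker UMIs also took it from 3.15 to 4.57 in CD4 T cells and from 4.29 to 3.57 in gamma delta T cells. Thinned cells took it from 4.19 to 4.92 in cDC2, from 3.20 to 4.02 in migratory dendritic cells and from 4.65 to 3.74 in non-immune cells, where cells of 1500 to 5000 UMIs gave 3.76. Levels of Rsad2 in NK, CD8 T, CD4 T, gamma delta T and non-immune cells were below 10% of the highest type in both libraries. The part of RNA released by other cells in these levels was not tested. Cmpk2 went from 12.3 to 258 CPM in macrophages, a log2 ratio of 4.39 (4.29 to 4.50), and from 5.71 to 127 in non-immune cells, 4.48 (4.12 to 4.85). In CD8 T cells it went from 3.80 to 79.0 CPM (4.38), in NK cells from 3.60 to 39.5 (3.46), in CD4 T cells from 6.56 to 117 (4.16) and in monocytes from 34.3 to 307 (3.16). The dendritic cells had ratios of 3.35 (cDC1), 3.61 (cDC2) and 2.07 (migratory). Its smallest ratio, 1.73 (1.26 to 2.22), was again in neutrophils, from 81.2 to 269 CPM, but thinned cells gave 1.65 in NK cells. They also gave 5.62 in CD8 T and 3.35 in non-immune cells. Cells of 1500 to 5000 UMIs gave 4.23 in migratory dendritic and 5.65 in non-immune cells, and doubled marker UMIs 5.38 in CD4 T cells. The size of the Cmpk2 ratio in these types thus leaned on the setting, and its direction did not.

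**Figure D3:**
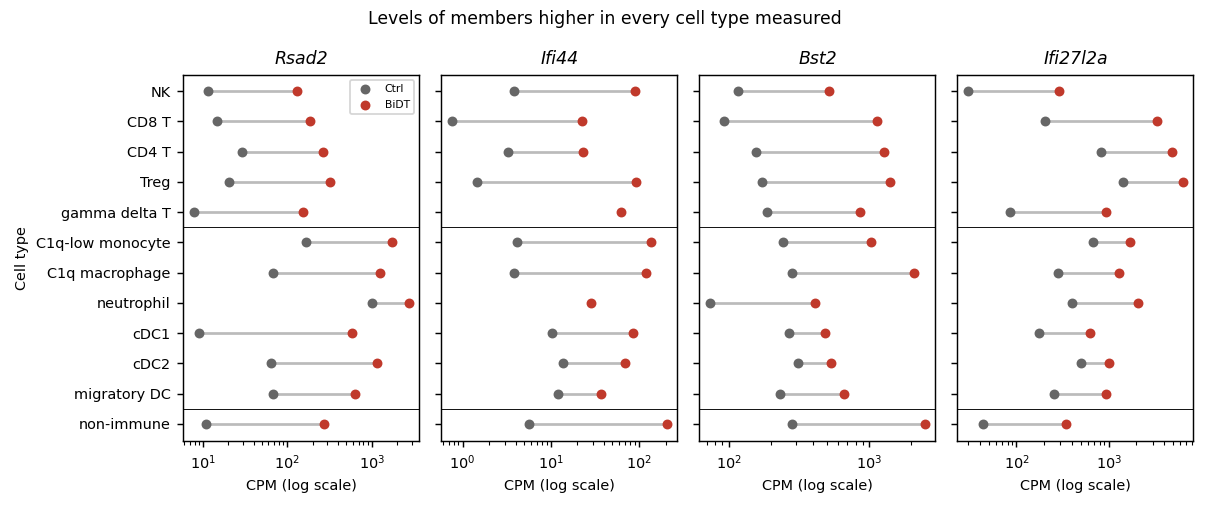
CPM of Rsad2, Ifi44, Bst2 and Ifi27l2a on a log axis in each cell type, in Ctrl (grey) and BiDT (red), with a line joining both; a value of 0 is not drawn. Every red point lies to the right of its grey point, and for Rsad2 the neutrophils are highest in both libraries, at 1008 and 2745 CPM.

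Ifi44, an interferon-induced cytoplasmic protein, stood at 13.8 CPM or less in every Ctrl type. It went from 3.83 to 119 CPM in macrophages, a log2 ratio of 4.96 (4.77 to 5.15), and from 5.71 to 206 in non-immune cells, 5.17 (4.82 to 5.55). In CD8 T cells it stood at 0.761 and 22.8 CPM (4.91, 3.66 to 6.54), in NK cells at 3.86 and 90.3 (4.55), in monocytes at 4.15 and 136 (5.04) and in cDC2 at 13.8 and 69.6 (2.33). In gamma delta T cells it had 0 UMIs in Ctrl and 28 in BiDT. That is 7.83-fold higher with a floor of 3 UMIs put in place of 0, and the lower limit of the log2 ratio was 2.57. In neutrophils, with 0 and 27 UMIs, it was 5.20-fold higher by the same floor, with a lower limit of 1.98. In regulatory T cells the log2 ratio of 5.98 (3.38 to 11.3) rested on 1.45 CPM in Ctrl and 91.6 in BiDT. In CD4 T cells, at 2 and 11 UMIs, it was not measured. In NK cells its ratio ran from 2.45 in thinned cells and 3.26 in cells of 1500 to 5000 UMIs to 5.25 with doubled marker UMIs. In non-immune cells thinning gave 4.26 and the middle depths 4.04, and in cDC2 doubled marker UMIs gave 3.08.

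Ifi27l2a, a small interferon-induced membrane protein, differed widely between cell types in both libraries. Regulatory T cells were highest, at 1416 CPM in Ctrl and 6362 in BiDT, and NK cells lowest, at 29.8 and 292. In CD8 T cells it went from 203 to 3368 CPM, a log2 ratio of 4.05 (3.98 to 4.13), and in cDC2 from 506 to 1008, a ratio of 0.99 (0.85 to 1.14). CD8 T cells lay below every myeloid type but cDC1 in Ctrl and above every myeloid type in BiDT. Gamma delta T cells went from 84.2 to 938 CPM, a ratio of 3.48 (2.96 to 4.04) that was 2.45 in thinned cells.

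Bst2 encodes tetherin, which holds budding virus particles at the cell membrane. In BiDT it was highest in non-immune cells, from 282 to 2484 CPM (log2 ratio 3.14, 3.08 to 3.19), and next in macrophages, from 284 to 2089 (2.88, 2.85 to 2.90). CD8 T cells went from 92.0 to 1134 CPM, a ratio of 3.62 (3.51 to 3.74). In cDC1 and cDC2 it went only from 269 to 487 and from 312 to 537 CPM, ratios of 0.86 (0.57 to 1.15) and 0.78 (0.59 to 0.98). In Ctrl cDC2 had been the highest of the 12 types.

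Rtp4, a receptor chaperone, and Xaf1, which counteracts an inhibitor of cell death, were also higher in all 12 types. Rtp4 went from 6.84 to 127 CPM in CD8 T cells, a log2 ratio of 4.21 (3.78 to 4.67; 3.18 in thinned cells), and from 360 to 685 in neutrophils, 0.93 (0.70 to 1.17). In CD4 T cells its ratio was 3.20 (2.28 to 4.26), and in cDC1 its ratio of 4.33 (2.62 to 6.70) came from 3.43 and 68.9 CPM and was 3.05 without doublet removal. Xaf1 stood between 26.3 CPM (cDC1) and 97.8 (neutrophils) in Ctrl and between 125 (cDC1) and 553 (neutrophils) in BiDT. Its ratio ran from 0.97 in cDC2 to 3.49 in CD8 T cells.

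The TRIM members are ubiquitin ligases or close relatives, and Trim25 acts on the RNA sensor RIG-I. Trim30a and Trim30d, which lie next to each other, had ratios of 2.68 and 3.68 in CD8 T cells and of 0.49 and 1.09 in cDC2, where Trim30a missed the call. In neutrophils Trim30a stood at 617 CPM in Ctrl and 1119 in BiDT, and Trim30d at 214 and 542, the highest levels of both genes in each library. Trim30d in gamma delta T cells went from 13.2 to 132 CPM, a ratio of 3.33 (2.03 to 5.01; 2.67 without doublet removal), and in migratory dendritic cells from 44.9 to 191, 2.09 (1.76 to 2.42).

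Trim25 was highest in monocytes, at 260 and 516 CPM, and its ratio kept to a narrow band from 0.79 in cDC1 to 1.99 in regulatory T cells. Trim12c and Trim34a had their largest ratios in non-immune cells, 3.17 (2.88 to 3.47) and 3.29 (2.75 to 3.88), and missed the call in cDC1 and cDC2 respectively. Trim21, the cytosolic antibody receptor, had the fewest UMIs of the members and was higher in only 5 of 10 types measured, among them macrophages (5.58 to 22.4 CPM). The Trim30, Trim12, Trim34, Phf11 and Ifitm genes have near-identical relatives, so that counts within each family could be split or shared between copies.

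Phf11b and Phf11d, neighbouring genes of PHD finger proteins, had large ratios in neutrophils. Phf11b went from 5.54 to 71.5 CPM there, a log2 ratio of 3.69 (2.08 to 6.01) on 3 Ctrl UMIs, and Phf11d from 3.69 to 28.8, a ratio of 2.97 (0.97 to 6.08; 2.37 without doublet removal). Xaf1 went from 97.8 to 553 CPM, 2.50 (2.09 to 2.94). Ifi44, at 0 Ctrl UMIs there, has no upper limit and cannot be ranked against them. Elsewhere Phf11b was highest in cDC1 in Ctrl, at 110 CPM, where it reached 199 in BiDT.

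The PARP members attach ADP-ribose to proteins, and Parp9 works in a complex with the ubiquitin ligase Dtx3l. Parp14, Dtx3l and Parp9 lie side by side in the genome. In macrophages they went from 53.7 to 258, from 35.2 to 123 and from 45.9 to 154 CPM, log2 ratios of 2.27, 1.81 and 1.74. In cDC2 the ratios were 1.13, 0.76 and 0.52, and Parp9 missed the call there. Dtx3l missed it in migratory dendritic cells (0.50) only. Across 12 types the log2 ratios of Dtx3l and Parp9 had a Pearson r of 0.75 and those of Parp14 and Dtx3l 0.44, given without a test because the types share libraries.

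Parp10 missed the call in regulatory T cells only, at 56.6 and 94.9 CPM, where its interval just reached below 0 (0.745, -0.001 to 1.475). Parp12 was higher in all 11 types where measured, with ratios from 0.60 in migratory dendritic cells to 2.81 in CD8 T cells. For other neighbours r was 0.92 for Trim30a and Trim30d, 0.48 for Rsad2 and Cmpk2, and 0.72 for Phf11b and Phf11d over 9 types.

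Pml, Sp100 and Daxx are proteins of the PML nuclear body, which restrains incoming viral genomes. Daxx was higher in all 12 types, from 46.6 to 270 CPM in macrophages (2.54, 2.47 to 2.60) and from 92.8 to 406 in monocytes, its highest level in BiDT. Pml had its largest ratio in regulatory T cells, from 16.0 to 167 CPM (3.39, 2.43 to 4.48), and its smallest in cDC2 (0.75). Sp100 was higher in 11 types and missed the call in cDC2, at 224 and 316 CPM (0.50, 0.26 to 0.74). In non-immune cells, where Sp100 was lowest in both libraries, it went from 35.8 to 235 CPM (2.72, 2.56 to 2.88).

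Isg20 is an exonuclease that degrades RNA. In macrophages it went from 5.50 to 42.8 CPM, a log2 ratio of 2.96 (2.78 to 3.14), and in monocytes from 20.2 to 79.0, 1.96 (1.81 to 2.12). In the lymphoid types it stood at 28.9 to 138 CPM in Ctrl and 61.0 to 291 in BiDT, with ratios from 0.72 in NK cells to 2.15 in gamma delta T cells. In neutrophils it was at 207 and 251 CPM, 0.28 (-0.05 to 0.62), and in cDC2 at 28.7 and 43.9, 0.61 (-0.09 to 1.29), and called in neither. Migratory dendritic cells (14.1 and 28.7 CPM) and non-immune cells (6.63 and 16.8) were called higher at levels below 10% of another type, and cDC1 was not measured. Thinned cells took Isg20 from 0.72 to 1.57 in NK and from 2.06 to 2.65 in CD8 T cells, and doubled marker UMIs from 1.41 to 2.42 in CD4 T cells. Cells of 1500 to 5000 UMIs gave 2.14 in macrophages, 2.84 in gamma delta T cells and -0.07 in cDC2.

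Helz2 and Mov10 are RNA helicases, and Samd9l is an antiviral protein that restrains translation. Helz2 and Samd9l were higher in all 12 types, each with its largest ratio in non-immune cells, 2.92 and 2.54. Mov10 missed the call in cDC2 only. Tor3a, an ATPase of the endoplasmic reticulum, missed it in gamma delta T cells only, where its ratio was 0.33 (-0.92 to 1.65). Its ratio in regulatory T cells, 4.17 (2.45 to 6.55), rested on 3 Ctrl UMIs. Tdrd7, a tudor domain protein, missed the call in CD4 T cells (0.96, -0.45 to 2.46, at 8 and 12 UMIs). It also missed it in gamma delta T cells (1.07, -0.38 to 2.72, at 6 and 15 UMIs). These misses came with wide intervals on few UMIs and not with smaller ratios. In non-immune cells its ratio of 0.88 (0.71 to 1.05) was called, the smallest of the 36 members called there.

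Epsti1 was higher in 11 types and not in NK cells, where it stood at 243 CPM in Ctrl, its highest Ctrl level, and 304 in BiDT (0.32, 0.21 to 0.43). Lgals3bp, a secreted galectin-binding glycoprotein, was not called in the same cells, at 160 and 151 CPM (-0.08, -0.22 to 0.05), again from its highest Ctrl level, but its ratio there was 0.67 in thinned cells. It was near level in cDC1 (49.1 and 47.7 CPM) and cDC2 (68.5 and 71.1). In macrophages Lgals3bp went from 74.9 to 282 CPM, a ratio of 1.91 (1.86 to 1.97).

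Ifi47 is an immunity-related GTPase, a family known for induction by interferon gamma. It was flat in neutrophils, at 554 and 503 CPM (-0.14, -0.35 to 0.07), and was not called in NK (56.4 and 82.1 CPM), gamma delta T (97.4 and 124) or migratory dendritic cells (80.9 and 114). In regulatory T cells it went from 174 to 275 CPM (0.66, 0.24 to 1.07), and in macrophages from 61.0 to 173 (1.51, 1.44 to 1.57). Nmi and Ifi35, which bind each other, were among the flattest members in dendritic cells: Nmi had ratios of -0.16 in cDC1 and 0.11 in cDC2, and Ifi35 of 0.20 and 0.23. Nmi was called in 5 types, with CPM of 45.1 and 92.6 in macrophages (1.04, 0.95 to 1.12), 56.6 and 113 in CD8 T cells, and 93.5 and 151 in CD4 T cells (0.69, 0.17 to 1.22, but -0.17 with the marker UMIs required doubled and 0.07 in thinned cells). In gamma delta T cells it stood at 78.9 and 113 CPM (0.51, -0.17 to 1.21).

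The Ifitm genes encode small membrane proteins that hinder the fusion of virus with cell membranes, and they parted from the rest. Ifitm2, Ifitm1, Ifitm3 and Ifitm6 lie in this order in the RefSeq annotation, with no other protein-coding gene between them. Ifitm1 was lower in 7 types. In macrophages it went from 122 to 37.2 CPM, 3.28 times less (log2 ratio -1.72, -1.82 to -1.61), in neutrophils from 906 to 319 (-1.51, -1.72 to -1.30) and in migratory dendritic cells from 1105 to 454 (-1.28, -1.44 to -1.13). It was also lower in monocytes (136 and 61.3 CPM, -1.15), cDC2 (1195 and 543, -1.14), NK cells (566 and 281, -1.01) and CD4 T cells (474 and 294, -0.69).

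Gamma delta T cells were the exception for Ifitm1, at 310 and 651 CPM, a log2 ratio of 1.07 (0.76 to 1.39). With the marker UMIs required of a cell doubled, that ratio was -0.24. In CD8 T cells Ifitm1 was level, at 658 and 645 CPM (-0.03, -0.08 to 0.03). It was not called in regulatory T cells (71.2 and 42.5 CPM), cDC1 (741 and 495, -0.58) or non-immune cells (27.3 and 22.4). In CD4 T cells the ratio turned to 0.19 when only cells of 1500 to 5000 UMIs were used, and was -1.36 in thinned cells. In cDC1 it was -3.42 with doubled marker UMIs and -3.25 in cells of 1500 to 5000 UMIs, and in non-immune cells it was 0.47 in thinned cells.

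**Figure D4:**
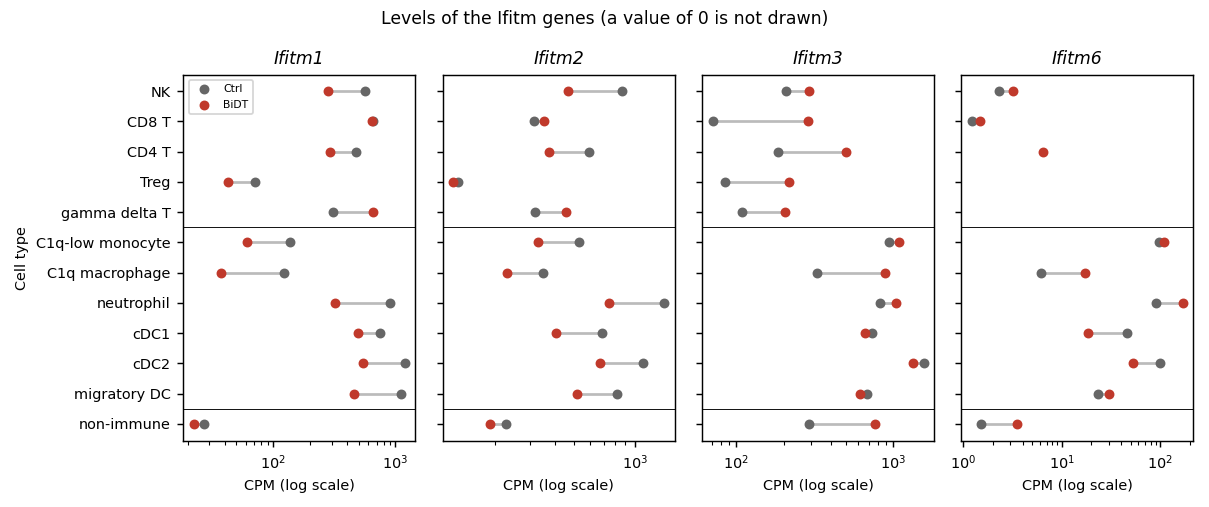
CPM of Ifitm1, Ifitm2, Ifitm3 and Ifitm6 on a log axis in each cell type, in Ctrl (grey) and BiDT (red), with a line joining both; values of 0 are not drawn. For Ifitm1 and Ifitm2 the red points lie left of the grey ones in most types. For Ifitm3 they lie to the left in the dendritic cells only, and to the right elsewhere, though NK cells, monocytes and neutrophils were not called higher.

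Ifitm2 was lower in 8 types and higher in none. Its level fell short of Ctrl most in neutrophils, at 1405 and 746 CPM (-0.91, -1.06 to -0.76), NK cells, at 861 and 464 (-0.89, -0.96 to -0.83), and cDC1, at 685 and 405 (-0.76, -1.02 to -0.50). In thinned cells the NK ratio was -1.58, and in cells of 1500 to 5000 UMIs the cDC1 ratio was -1.40, so that the order of these types leaned on the setting. In cDC2 it stood at 1100 and 675 CPM (-0.70), in monocytes at 527 and 329 (-0.68), in migratory dendritic cells at 818 and 514 (-0.67), in CD4 T cells at 592 and 375 (-0.66) and in macrophages at 348 and 230 (-0.60). CD8 T cells (313 and 353 CPM, 0.18), regulatory T cells (131 and 124), gamma delta T cells (316 and 452, 0.52) and non-immune cells (227 and 189, -0.26) were not called. Cells of 1500 to 5000 UMIs gave -0.83 in regulatory T and -0.44 in gamma delta T cells. The 7 types where Ifitm1 was lower were all among the 8 of Ifitm2. Of these neighbours, Ifitm2 has the ISRE letters shown above and Ifitm1 has none in its window. Across 12 types their log2 ratios had a Pearson r of 0.84, against 0.35 for Ifitm1 and Ifitm3.

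Ifitm3 split the cell types. It was higher in CD8 T cells, from 70.6 to 286 CPM (2.02, 1.88 to 2.16), in CD4 T cells, from 185 to 500 (1.43), and in regulatory and gamma delta T cells (84.2 to 216 and 108 to 205 CPM). The ratio in regulatory T cells, 1.36, was 2.17 in cells of 1500 to 5000 UMIs. Macrophages went from 328 to 885 CPM (1.43, 1.40 to 1.46) and non-immune cells from 290 to 764 (1.40, 1.33 to 1.46). The types with the most Ifitm3 in Ctrl did not follow. Monocytes stood at 939 and 1091 CPM (0.22), neutrophils at 818 and 1045 (0.35), cDC1 at 727 and 660 (-0.14), cDC2 at 1558 and 1341 (-0.22, -0.33 to -0.11) and migratory dendritic cells at 683 and 611 (-0.16). NK cells, at 206 and 291 CPM (0.50), were not called either.

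Ifitm6 is a mouse member of the family that was found mainly in myeloid cells. It was higher in macrophages, from 6.10 to 17.1 CPM (1.49, 1.28 to 1.70; 0.51 in cells of 1500 to 5000 UMIs), and neutrophils, from 90.4 to 170 (0.91, 0.44 to 1.40). It was lower in cDC2, from 99.8 to 53.0 CPM (-0.91, -1.48 to -0.39), and cDC1, from 45.7 to 18.5 (-1.30, -2.71 to -0.13). Monocytes were level, at 97.8 and 109 CPM (0.15), and migratory dendritic cells stood at 23.5 and 30.0 (0.35). NK, CD8 T and non-immune cells held 1.22 to 3.51 CPM, below 10% of the highest type in both libraries. The non-immune cells were called higher at these levels (1.51 to 3.51 CPM, 1.22). The part of RNA released by other cells was not tested there. In CD4 T, regulatory T and gamma delta T cells Ifitm6 was not measured.

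Pairs of cell types were set against each other by the difference of their log2 ratios, called where its counting interval lay on one side of 0. The ratio was larger in CD8 T than in NK cells for 29 of 38 members and smaller for 0, against 9.39% of all genes larger, with a median difference of 0.71. Rtp4 (difference 1.68, 1.03 to 2.33), Ifitm3 (1.52, 1.34 to 1.70) and Mov10 (1.52, 1.07 to 1.97) differed most, while Rsad2 was near equal (0.16, -0.36 to 0.68). Macrophages exceeded monocytes for 33 members (23.6% of all genes) and fell below for 1, Ifitm1 (18.1% of all genes), with a median of 0.63. They exceeded cDC2 for 35 members (13.0%) and fell below for 1, again Ifitm1 (14.9%), with a median of 1.20. Rsad2 was the gene nearest to equal between macrophages and cDC2 (0.01, -0.27 to 0.29), and Ifi44 the furthest apart (2.63, 1.91 to 3.34).

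Non-immune and CD8 T cells had like medians, and Ifi44 had the largest ratio in both, but other members differed in ratio between them. The ratio was larger in non-immune cells for 15 members (20.2% of all genes) and larger in CD8 T cells for 12 (16.0% of all genes), with a median difference of 0.24. Sp100 (1.55, 1.37 to 1.73), Trim34a (1.36, 0.74 to 1.99) and Trim12c (1.08, 0.74 to 1.42) leaned to the non-immune cells. Tdrd7 (-1.10, -1.62 to -0.58), Parp12 (-1.07, -1.67 to -0.48) and Ifi27l2a (-1.05, -1.21 to -0.89) leaned to the CD8 T cells. In these comparisons each library is 1 pool, so that they describe these cells and have no replicate check.

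The members' levels spanned a narrower range across cell types in BiDT than in Ctrl for most members. For the 34 members with at least 3 UMIs in every type and library, the highest type exceeded the lowest by a median of 9.84-fold in Ctrl and 5.89-fold in BiDT, and the range was narrower in BiDT for 26 and wider for 8. Over 5941 genes with that many UMIs the medians were 4.44-fold and 4.87-fold, and 44.7% were narrower in BiDT. The lowest Ctrl levels rest on few UMIs. With at least 20 UMIs in every type and library, a minimum chosen after seeing the data, 13 of 15 members were narrower, against 47.9% of 1687 genes. For Rsad2 it went from 128-fold to 21.3-fold, for Rtp4 from 105-fold to 12.9-fold, with 3 Ctrl UMIs in the lowest type of each, and for Bst2 from 4.23-fold to 6.03-fold, one of the wider ones. Neutrophils were the highest type for 16 of 38 members in Ctrl and 12 in BiDT. The cDC2 were highest for 11 in Ctrl and 1 in BiDT, and regulatory T cells for 4 and 10. The highest type was the same in both libraries for 20 members. Counts of the highest type were not made over all genes, and they include members with few UMIs in some types.

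The difference was also counted cell by cell. Cells were thinned to 1000 UMIs each, with none too shallow, and the UMIs of 34 members (all but the Ifitm genes) were summed. The sum gives most weight to abundant members. In BiDT CD8 T cells, where its mean was 9.69, Ifi27l2a stood at 3368 CPM and Bst2 at 1134. The median per cell was 1 in Ctrl and 9 in BiDT in CD8 T cells and in macrophages, 3 and 16 in regulatory T cells, and 1 and 7 in non-immune cells. The 10th percentile of BiDT CD8 T cells was 3, above the Ctrl median of 1. Neutrophils started higher, at 5, and reached 13. NK cells (1 and 4), cDC1 (2 and 5), cDC2 (3 and 6) and migratory dendritic cells (2 and 5) had the smallest steps.

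**Figure D5:**
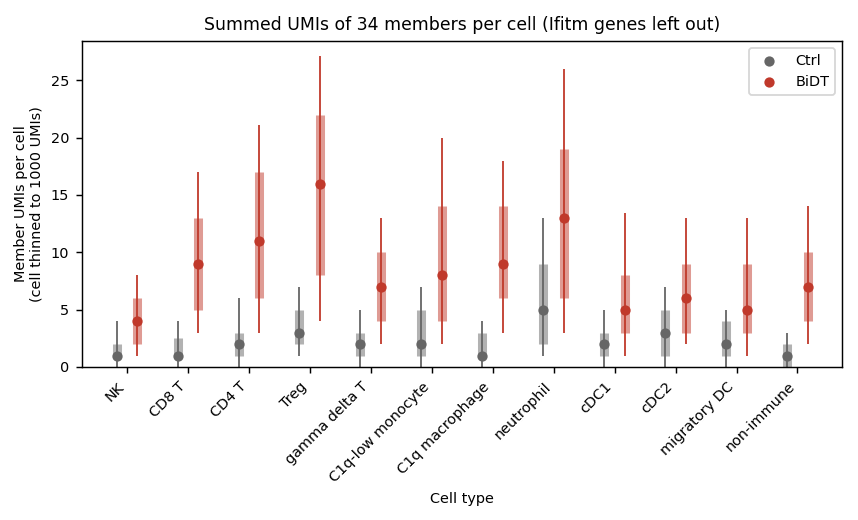
Summed UMIs of 34 members per cell after thinning to 1000 UMIs, by cell type, in Ctrl (grey) and BiDT (red). Points are medians, thick bars the 25th to 75th and thin lines the 10th to 90th percentile of cells, and the medians run from 1 to 5 in Ctrl and from 4 to 16 in BiDT.

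Other interferon-induced genes are given as lists that were chosen with earlier results of these data known. A core type I list of 28 genes (such as Ifit1, Isg15, Oas2 and Irf7) had 27 of 27 measured genes higher in 8 types, 26 of 27 in neutrophils, 25 of 27 in cDC2, 23 of 24 in gamma delta T cells and 20 of 23 in cDC1, with 0 lower in any type. Its median log2 ratio ran from 1.29 in cDC2 and 1.43 in neutrophils to 3.12 in CD8 T and 3.87 in non-immune cells. A list of 24 interferon gamma targets (such as Cxcl9, Ciita and Gbp2) had between 2 of 20 genes higher in gamma delta T cells and 17 of 24 in non-immune cells, with medians from 0.10 to 1.41. Up to 6 of its genes were lower in a type, namely in NK cells, gamma delta T cells, monocytes and macrophages, so that in gamma delta T cells more were lower than higher. A list of 12 housekeeping genes had medians from -0.385 in macrophages to 0.09 in gamma delta T cells, with at most 1 gene higher in any type, but 5 lower in macrophages, 4 in migratory dendritic cells, 3 in regulatory T and in non-immune cells, and 0 to 2 in the others. The members with the ISRE letters had a median of 2.79 in non-immune cells against 1.87 for those without, and of 0.67 against 0.77 in cDC2, so that their order was not the same in all types.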

How the data were processed

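For each library the authors deposited UMI counts of every gene in every barcode, not normalized. The submitters' processing notes name Cell Ranger 7.1.0 and the build GRCm39, although the form of the deposited barcodes is not the one Cell Ranger writes. Which annotation was counted is not stated in the sources used. Coordinates and promoters are from RefSeq on another build, GRCm38.p6, and only there.

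A cell was kept with 300 or more genes, 500 or more UMIs and no more than 10% of UMIs from mitochondrial genes. Scrublet (scanpy 1.11.5, expected rate 5%) marked 0 cells by its own thresholds and so had not worked. A score of 0.15, chosen with the scores in view, was used in its place and removed 2192 Ctrl and 2714 BiDT cells. Mitochondrial UMIs removed 1702 and 572. Cells were placed by marker UMIs, such as at least 3 UMIs of Cd3 genes and Trac for T cells, with limits on markers of other types. The marker genes were listed first, and the limits were set after looking at marker counts. The limits of the gates exclude one another, so no cell could meet 2 gates. Between 11.7% (non-immune, Ctrl) and 72.0% (regulatory T, BiDT) of a type's cells no longer qualified when the marker UMIs required were doubled. Cells in no type and a plasmacytoid dendritic gate with 63 and 23 cells, under the 50 required, were left out.

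UMIs were summed per type and library and given as CPM. The log2 ratio of BiDT over Ctrl has an exact conditional (Clopper-Pearson) 95% interval, and a difference of ratios an approximate normal one (scipy 1.17.1 and numpy 2.4.6 in Python 3.11.15). No test was possible with single libraries, and edgeR 4.0.16 was used only for TMM factors. The ratios and calls were also run on simulated counts that hold counting error alone. Such a run cannot show variation between animals, libraries or gates. The promoter search covered both strands.

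The members and lists were chosen with earlier results of these data known. Genes given in full are the 3 highest and 3 lowest of each type, those called lower, those sorted to 1 compartment or to none, the Ifitm genes and Isg20; genes beyond this rule were chosen after their values were seen. The alternatives were TMM scaling, a minimum of 10 or 50 UMIs, a 2-fold threshold, doubled marker UMIs, thinning to 1000 UMIs, no doublet removal, no mitochondrial filter, cells of 1500 to 5000 UMIs and, chosen after seeing the data, leaving out shared barcodes and, for the range over types, a minimum of 20 UMIs.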

Additional observations from a re-analysis of the deposited data

Results flagged for a closer look

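Ifitm1 and Ifitm6 were called in opposite directions in different cell types, a difference that was not tested over replicates. Ifitm1 had a log2 ratio of -1.72 in macrophages (lower in 7 types) against 1.07 in gamma delta T cells, its 1 higher type, where 108 Ctrl and 116 BiDT cells stood behind the value. Ifitm6 had -1.30 in cDC1 (lower in 2 types) against 1.49 in macrophages (higher in 3 types).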

How the results depend on the processing

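Over 10 alternatives the median log2 ratio of the members stayed above 0 in all 12 types, lowest at 0.60 in cDC2 and highest at 2.61 in regulatory T cells. The 2-fold threshold is counted among the 10 but cannot change a median. No alternative put a member under myeloid cells only or non-immune cells only. TMM scaling gave a median of 1.97 in macrophages. A 2-fold threshold left 12 members higher in cDC2 and 7 in all types. Doubled marker UMIs left 16 higher in cDC1, 0 sorted to lymphoid cells only and 2 never higher. Thinning to 1000 UMIs, by which fewer cells met a gate and fewer members were measured (4 in regulatory T cells and in gamma delta T cells, 2 in cDC1), left 17 higher in NK, 10 in CD4 T, 3 in regulatory T, 4 in gamma delta T, 2 in cDC1, 7 in cDC2 and 14 in migratory dendritic cells. It moved the median to 2.61 in regulatory T cells, 1.22 in monocytes, 2.47 in cDC1 and 2.42 in non-immune cells, and left 9 members in all types, 0 in lymphoid cells only and 2 never higher. Cells of 1500 to 5000 UMIs gave medians of 1.29 in monocytes and 1.93 in macrophages, with 12 members higher in cDC1. The cause of these shifts, apart from the fewer cells and UMIs of thinning, was not tested. Of 941 values for 101 pairs of a named member and a type, 831 stayed within the counting interval, 107 moved outside it and 3, all of called pairs, turned in sign: with doubled marker UMIs Ifitm1 in gamma delta T cells (-0.239) and Nmi in CD4 T cells (-0.168), and with cells of 1500 to 5000 UMIs Ifitm1 in CD4 T cells (0.194). A further 10 values of pairs that were not called changed sign, such as Lgals3bp in NK cells (0.674) and Ifitm1 in non-immune cells (0.466) with thinning. In all, 48 values moved by over 1.5 times: 17 with thinning, 17 with cells of 1500 to 5000 UMIs, 10 with doubled marker UMIs, 3 without doublet removal and 1 without the shared barcodes. Leaving out the shared barcodes moved only Rsad2 in regulatory T cells among these pairs, to 4.95. Ifitm1 had a log2 ratio below 0 in 8 to 11 types and Ifitm2 in 8 to 11. Depth limits the small types most. No paired analysis was possible because each group is 1 library and no replicate numbers are shared beyond it.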

Other observations

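Cells that met no gate, 11530 in Ctrl and 16183 in BiDT, had 34 of 38 members higher and 2 lower, with a median log2 ratio of 1.62, where 23.1% of all genes were higher. Plasmacytoid dendritic cells, known as strong makers of type I interferon, were too few in BiDT (63 and 23 cells) for a comparison. In them 27 members were measured, of which 12 were higher (7.22% of all genes) and 0 lower, with a median log2 ratio of 0.55. Bst2, whose product is a surface marker of these cells in mice, stood at 3341 and 3275 CPM, and Rsad2 at 20.6 and 463.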
